A study of Mus musculus with 3 samples.

Results

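The genes described here are 34 genes of glycolysis and of the cellular response to low oxygen, chosen by name: 20 that carry glucose from uptake to lactate export (the glycolytic steps) and 14 other hypoxia genes. A probe was given to a gene through the RefSeq accession it carries, which found 48 probes for 32 of the 34 genes, out of 13184 named genes measured on the arrays. No probe was assigned to Gapdh or Ndrg1, which are not analysed here. On 1 array or more, 47 of the 48 probes were well above background, and all 32 genes (19 glycolytic steps and 13 other hypoxia genes) were above background on every array.

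RNA came from whole mouse embryos of mixed background, 3 pooled per array, and was read on 1-colour Agilent arrays. The triple null group was MafF-/-:MafG-/-:MafK-/- at E10.5. The other 2 groups, called MafG-intact here, were MafF-/-:MafG+/+:MafK-/-, of which 1 was taken at E10.5 and 1 at E9.5, so every embryo of the study lacked MafF and MafK, which are small Maf proteins that pair with other bZIP factors to bind DNA. Each group was 1 array, so replicate error is unknown, no test was made, and "higher" or "lower" holds for these pools only. A level is the log2 intensity of a gene minus the 75th percentile of its array, and 0 is that percentile. Levels depend on the probe, so they are compared between arrays and not between genes.

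As a check of the labels, Mafg did not stand well above background in the triple null pool, which put it at least 173-fold below the MafG-intact pool of E10.5 and at least 253-fold below that of E9.5. Maff and Mafk probes were above background on every array, and whether they lie in the deleted parts is not known. The 3 arrays shared 1 slide and 1 scan day, and the share of probes well above background was between 69.1% and 70.4%. Sex was not alike in the pools: the MafG-intact pool of E10.5 was the only one with Xist above background and the only one where the Y-linked gene Ddx3y was not. Sex and group therefore cannot be told apart in any comparison with the MafG-intact E10.5 array.

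Glycolysis breaks glucose down to pyruvate in the cytosol, and lactate dehydrogenase then reduces pyruvate to lactate, which monocarboxylate transporters export. Hypoxia-inducible factor (HIF), a dimer of an oxygen-sensitive alpha subunit with ARNT, switches on many of these enzymes when oxygen is scarce, together with genes for blood vessel growth, mitochondrial turnover and acid balance. Before the placental and embryonic circulations are well established, early mouse embryos rely on glycolysis to a large degree and HIF is needed for their development.

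The letters that HIF reads, ACGTG or GCGTG, were looked up on both strands in the RefSeq promoter windows of GRCm38.p6, which reach from 250 bases before a gene's start to 50 after it. A window was listed for 32 of the 34 genes (Slc2a3 and Ndrg1 had no entry). ACGTG stood in at least 1 window of 23 of these 32 genes, or 71.9%, beside 21.8% of 27025 genes with a window. Promoters of these genes are rich in CpG, with a median of 20 CpG per window beside 7 over all windows, and the letters contain a CpG themselves. Among windows with at least 10 CpG, 60.0% of the 35 member windows held ACGTG, beside 28.0% of 14281. The other core, GCGTG, was in a window of 68.8% of the 32 genes, beside 35.2% of genes in all, and among the CpG-rich windows in 65.7%, beside 56.6%. The letters TGACNNNGC, the core of the antioxidant response element that small Maf dimers bind, were found in 6 of the 32 genes, or 18.8%, beside 14.0% of all genes. Among the CpG-rich windows they were in 14.3% of those of members, beside 14.6% of all. Among the glycolytic steps with a window, 12 of 19 had ACGTG and Gpi1, Pfkl, Pfkp, Tpi1, Eno1, Eno2 and Ldhb had none. Of the other hypoxia genes 11 of 13 had it, all but Pdk1 and Adm. A match of letters is a description and does not show that a factor binds there.

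Windows of 6 genes are shown for genes the results turn on. Both lactate dehydrogenase genes and Eno2 are among them, because Ldhb and Eno2 went the opposite way to most others. The rest are Pgk1, Slc16a1 and Bnip3, as a middle step, a lactate transporter and a hypoxia gene. Capitals mark ACGTG and GCGTG on either strand, the sequences run 5′ to 3′ along the gene, and for a gene with several windows the one with most ACGTG is given. The windows are chr7:46845554-46845853 on the plus strand for Ldha, chr6:142507908-142508207 on the minus strand for Ldhb, chr6:124769624-124769923 on the minus strand for Eno2, chrX:106186850-106187149 on the plus strand for Pgk1, chr3:104638414-104638713 on the plus strand for Slc16a1 and chr7:138909457-138909756 on the minus strand for Bnip3, all in GRCm38.p6.
Ldha: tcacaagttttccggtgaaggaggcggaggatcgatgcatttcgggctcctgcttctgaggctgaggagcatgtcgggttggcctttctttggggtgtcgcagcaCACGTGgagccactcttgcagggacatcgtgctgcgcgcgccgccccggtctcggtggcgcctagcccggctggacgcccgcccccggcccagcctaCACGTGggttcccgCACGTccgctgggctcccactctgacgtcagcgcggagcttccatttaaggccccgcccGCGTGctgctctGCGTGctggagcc
Ldhb: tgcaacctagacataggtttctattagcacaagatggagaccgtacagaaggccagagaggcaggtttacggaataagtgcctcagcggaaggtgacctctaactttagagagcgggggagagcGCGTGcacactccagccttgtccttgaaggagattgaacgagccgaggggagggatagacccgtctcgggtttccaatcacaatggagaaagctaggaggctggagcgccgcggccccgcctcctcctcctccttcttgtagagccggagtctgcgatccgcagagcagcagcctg
Eno2: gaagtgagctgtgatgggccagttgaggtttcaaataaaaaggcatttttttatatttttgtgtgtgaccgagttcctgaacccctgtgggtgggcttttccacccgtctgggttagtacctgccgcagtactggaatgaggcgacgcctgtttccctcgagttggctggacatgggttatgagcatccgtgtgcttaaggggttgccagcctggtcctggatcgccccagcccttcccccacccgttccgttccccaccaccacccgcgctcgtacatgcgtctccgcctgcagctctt
Pgk1: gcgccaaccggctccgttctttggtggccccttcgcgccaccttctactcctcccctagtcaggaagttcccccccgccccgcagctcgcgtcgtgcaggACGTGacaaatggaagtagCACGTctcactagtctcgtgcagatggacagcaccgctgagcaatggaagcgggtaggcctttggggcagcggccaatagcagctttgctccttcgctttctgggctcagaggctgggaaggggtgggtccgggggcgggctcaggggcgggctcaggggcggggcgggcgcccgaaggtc
Slc16a1: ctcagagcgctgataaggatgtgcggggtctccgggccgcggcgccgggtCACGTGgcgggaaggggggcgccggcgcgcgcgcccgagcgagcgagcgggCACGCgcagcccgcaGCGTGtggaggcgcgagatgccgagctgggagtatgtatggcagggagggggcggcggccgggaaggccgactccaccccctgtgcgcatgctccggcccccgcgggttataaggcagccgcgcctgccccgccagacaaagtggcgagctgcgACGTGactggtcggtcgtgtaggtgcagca
Bnip3: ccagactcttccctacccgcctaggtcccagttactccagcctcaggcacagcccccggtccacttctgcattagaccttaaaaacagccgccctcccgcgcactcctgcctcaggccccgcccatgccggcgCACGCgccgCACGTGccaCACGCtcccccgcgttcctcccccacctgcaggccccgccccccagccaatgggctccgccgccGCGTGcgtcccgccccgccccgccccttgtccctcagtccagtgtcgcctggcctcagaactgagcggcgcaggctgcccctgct
The Ldha window held 5 matches to ACGTG, where a CACGTG counts on both strands, and 2 to GCGTG. The Ldhb window held 1 GCGTG and no ACGTG, and the Eno2 window held neither.

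The first comparison sets triple null embryos beside MafG-intact ones of the same stage and asks what went with loss of MafG where MafF and MafK were already missing. Most glycolysis and hypoxia genes were higher in the triple null pool. The median log2 difference was 0.63 over the 19 measured glycolytic steps and 0.50 over the 13 other hypoxia genes, beside 0.06 over all 12529 genes above background on both arrays. Of the 32 genes 28 were above 0, beside 58.4% of all genes, and 4 (Pfkm, Eno2, Ldhb and Ddit4) were below 0, beside 41.6%. At least 1.5-fold higher were 16 of the 32 (13 glycolytic steps and 3 other hypoxia genes), beside 4.12% of all genes, and 1, Ldhb, was at least 1.5-fold lower, beside 9.72%. With the median difference of genes of like level taken out, 9 of the 32 were at least 1.5-fold higher. The share of all genes is not given for that setting. Slc2a1, Hk2, Aldoa, Tpi1, Pgk1, Ldha and Bnip3 were then between 0.48 and 0.58. At 2-fold there was 1 higher gene, the glucose transporter gene Slc2a3 (0.982% of all genes), and 1 lower, Ldhb (4.47%), which makes 2 of 32 genes at least 2-fold apart, beside 5.45%.

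The scanner software gives an error for every spot, which came to 0.12 to 0.27 on a log2 difference of these genes (median 0.20). It was nearly fixed by the number of probes, at 0.20 for most genes with 1 probe and 0.14 for most genes with 2. A cut at 2 errors is therefore nearly the same for all genes of a probe number, and lower with more probes. The scanner error covers the reading of the spots and not the embryos. In the first comparison 23 of the 32 genes were higher by more than 2 such errors, beside 12.5% of all genes, and 1 was lower by as much, beside 14.3%. Probes for Gpi1, Pgk1 and Vegfa were each printed 10 times, and their 9 or 10 kept spots had an SD of 0.03 to 0.09 on each array. Spots of the Pgk1 probe lay at 6.94 to 7.11 (triple null), 6.29 to 6.49 (MafG-intact E10.5) and 6.74 to 6.92 (E9.5), without overlap. Those of Gpi1 overlapped between the triple null (6.34 to 6.44) and E9.5 (6.21 to 6.40) arrays. Vegfa spots overlapped between triple null (0.31 to 0.55) and E9.5 (0.18 to 0.47), and between E9.5 and MafG-intact E10.5 (0.02 to 0.27).

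**Figure D1:**
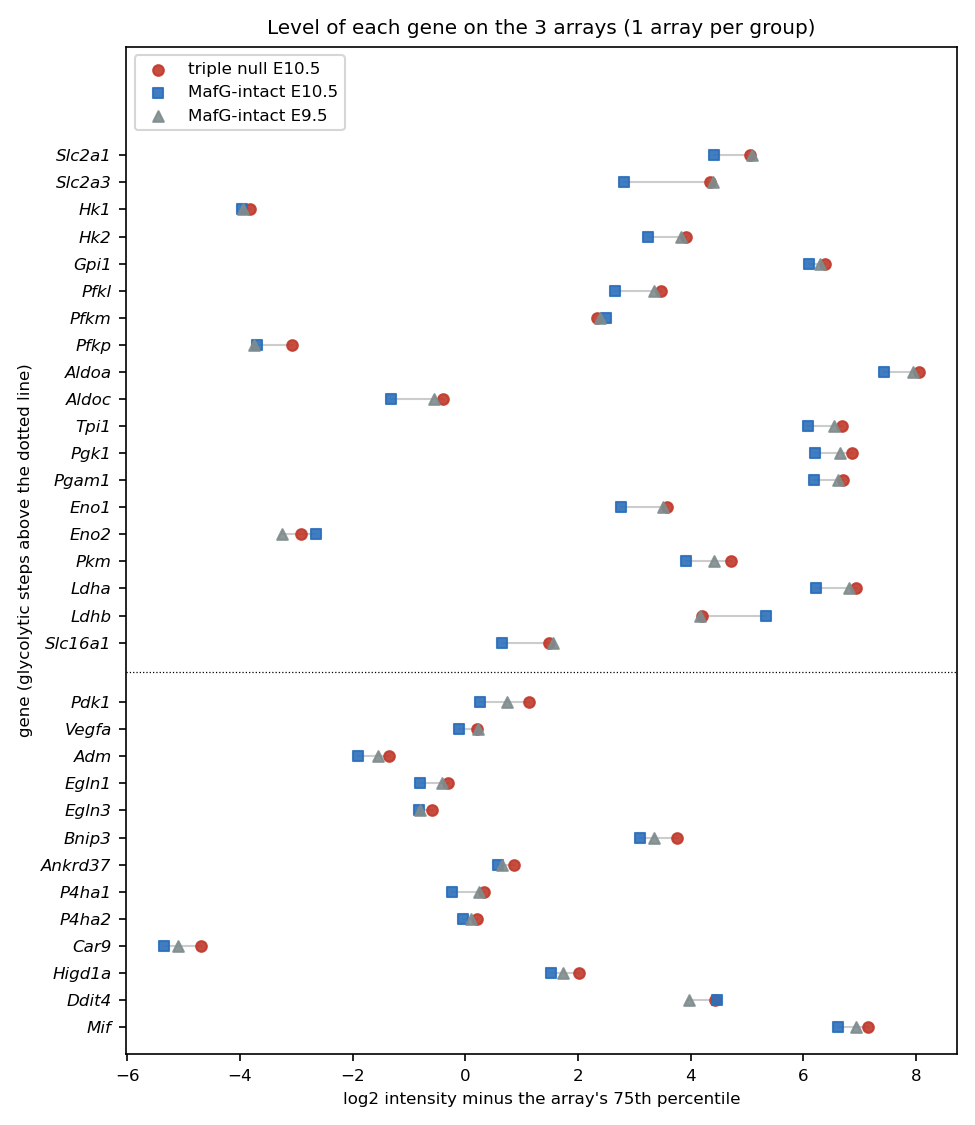
Level of each of the 32 measured genes on the 3 arrays, with 1 array per group. The horizontal axis is the log2 intensity minus the 75th percentile of the array and each row is a gene, glycolytic steps above the dotted line and other hypoxia genes below it. The blue square (MafG-intact E10.5) is the leftmost symbol in 27 of the 32 rows, and it is the rightmost in the rows of Pfkm, Eno2, Ldhb and Ddit4.

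Of the genes for glucose uptake and its first phosphorylation, Slc2a3, Slc2a1 and Hk2 were at least 1.5-fold higher in triple null embryos. Slc2a3, a high-affinity glucose transporter, had a level of 4.35 on the triple null array, against 2.81 at MafG-intact E10.5 and 4.41 at E9.5. It was 2.90-fold higher in the triple null pool than at the same stage and differed from the younger pool by -0.05. Slc2a1, the widespread basal glucose transporter, had 5.06 on the triple null array, against 4.42 and 5.09 on the MafG-intact arrays of E10.5 and E9.5, so the E10.5 difference of Slc2a3 was larger by 0.90. With quantile normalization Slc2a1 was 0.55 higher, below 1.5-fold. Hk2, the hexokinase that HIF is known to induce, had 3.91 on the triple null array, against 3.24 at MafG-intact E10.5 and 3.83 at E9.5. Hk1, the hexokinase of most tissues, showed little: its 4 usable probes averaged -3.82 on the triple null array, against -3.96 and -3.94 at MafG-intact E10.5 and E9.5. They did not agree among themselves, with 3 probes from 0.18 to 0.28 and the other at -0.16 in the first comparison.

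The phosphofructokinases, which catalyse the committing step, differed by isozyme. Pfkl, the liver form, had 3.48 on the triple null array, against 2.66 at MafG-intact E10.5 and 3.36 at E9.5, which is 1.77-fold higher than in the pool of the same stage. Pfkm, the muscle form, was the other way round at 2.34, against 2.50 and 2.40, a difference of -0.16 that is smaller than the scanner error. Pfkp, the platelet form, had -3.08 on the triple null array, against -3.70 at MafG-intact E10.5 and -3.74 at E9.5. It was thus the 1 gene of the 32 that was at least 1.5-fold higher in triple null embryos than on both MafG-intact arrays. Its 2 probes gave 0.65 and 0.58 in the first comparison, and 0.43 and 0.90 against E9.5, where 1 of them is below 1.5-fold. With normexp its differences were 0.56 and 0.31, both below 1.5-fold. Gpi1, which isomerises glucose 6-phosphate just before this step, had 6.38, against 6.10 and 6.30, and its difference of 0.28 was among the smaller ones.

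The enzymes that split the sugar and harvest energy from it were higher by 0.52 to 0.92, but for most of them the size depended on the normalization. Aldoa, the most widespread aldolase, had 8.06 on the triple null array, against 7.44 at MafG-intact E10.5 and 7.95 at E9.5, with its 2 probes at 0.64 and 0.61. Aldoc, known as the brain aldolase, had -0.40, against -1.32 and -0.56, so it was 1.89-fold higher than in MafG-intact E10.5 embryos, second to Slc2a3 among the steps that were higher. Tpi1, which interconverts the products of aldolase, had 6.69, against 6.08 and 6.55 on the MafG-intact arrays. Pgk1, an X-linked enzyme that makes ATP, had 6.87, against 6.22 and 6.65, and both of its probes were higher (0.63 and 0.67). In Pgam1, the next enzyme, the levels were 6.71, against 6.19 and 6.61. The triple null array was the highest of the 3 for each of these 5 genes and MafG-intact E10.5 the lowest. With quantile normalization the differences were 0.31 for Aldoa, 0.41 for Tpi1, 0.43 for Pgk1 and 0.31 for Pgam1, all below 1.5-fold, while that of Aldoc was 0.94. Several of these abundant enzymes have processed pseudogenes in the mouse, and whether a probe reads them too is not known.

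The end of the pathway showed wide splits between isozymes. Eno1, the general enolase, had 3.59 on the triple null array, against 2.76 at MafG-intact E10.5 and 3.52 at E9.5, and Eno2, the enolase of neurons, had -2.92, against -2.66 and -3.25. Their differences at E10.5 were 0.82 and -0.26, a gap of 1.08. Beside Eno2, all 8 neuron markers, such as Tubb3 at -1.86 and Dcx at -2.53, were at least 2-fold lower in triple null embryos than at MafG-intact E10.5, and their part in its difference was not tested. Pkm, pyruvate kinase, had 4.73, against 3.93 and 4.41, and was 1.74-fold higher at the same stage.

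Lactate dehydrogenase gave the widest gap of all isozyme pairs examined here. Ldha, whose subunit favours the making of lactate, had 6.93 on the triple null array, against 6.23 at MafG-intact E10.5 and 6.81 at E9.5, and its 2 probes gave 0.81 and 0.60 (0.49 for the gene with quantile normalization, below 1.5-fold). Ldhb, whose subunit favours the use of lactate, had 4.21, against 5.33 and 4.17, which is 2.18-fold lower than at MafG-intact E10.5. The log2 differences of the pair were 1.83 apart in the first comparison and 0.08 apart against E9.5. Ldhb rests on 1 probe, as do Slc2a3, Aldoc, Pfkl, Eno1 and Pkm among the steps with large differences. Slc16a1, the monocarboxylate transporter that carries lactate and pyruvate, had 1.49, against 0.66 and 1.57, and all 3 of its probes were higher at E10.5, by 0.69 to 1.05.

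**Figure D2:**
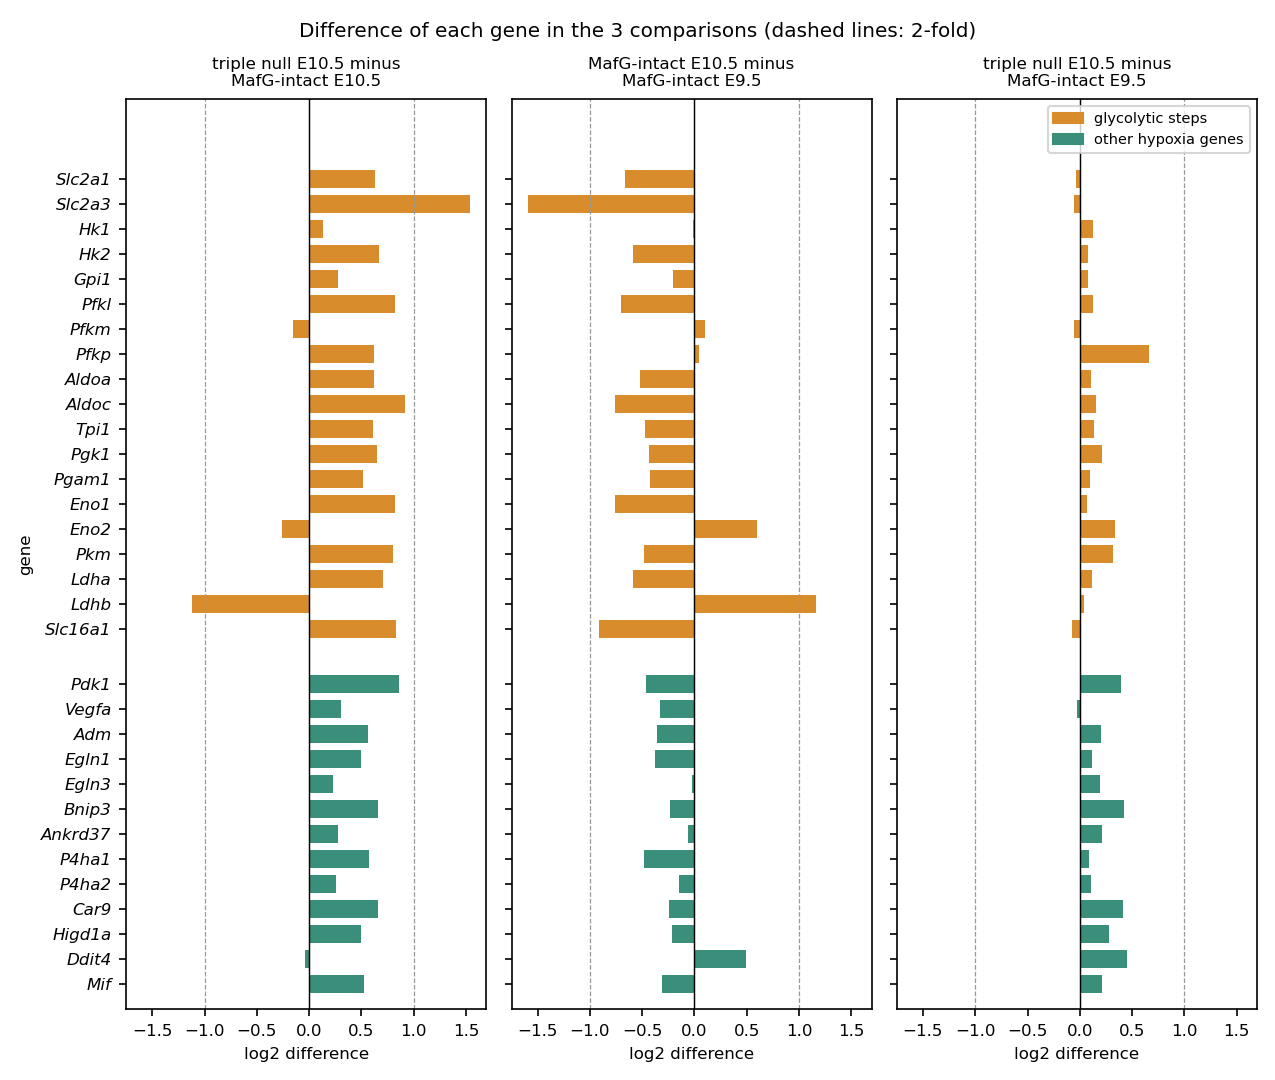
Log2 difference of each gene in the 3 comparisons, as bars on a common axis with glycolytic steps in orange and other hypoxia genes in green, and dashed lines at 2-fold. Bars point right for 28 of 32 genes in the left panel, left for 27 of 32 in the middle panel, and are short in the right panel, where Pfkp at 0.66 is the longest.

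Among the hypoxia genes outside the pathway, Pdk1, Bnip3 and Car9 had the largest differences. Pdk1, a kinase that inhibits pyruvate dehydrogenase and so the making of acetyl-CoA from pyruvate, had 1.13 on the triple null array, against 0.27 at MafG-intact E10.5 and 0.74 at E9.5, 1.81-fold higher than at the same stage. Bnip3, which promotes removal of mitochondria, had 3.77, against 3.11 and 3.34. Car9, a membrane carbonic anhydrase, had -4.69, against -5.35 and -5.11, so its signal was dim on every array. These 3 were the other hypoxia genes at least 1.5-fold higher in the first comparison, and each was highest in the triple null pool and lowest at MafG-intact E10.5. With normexp background correction Car9 was 0.39 higher, below 1.5-fold, and 0.13 higher than at E9.5 in place of 0.42. Higd1a, a mitochondrial protein that HIF induces, had 2.02, against 1.52 and 1.74, and its 2 probes were 0.51 and 0.48 higher at E10.5.

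The secreted factors and the hydroxylases that act on HIF were below 1.5-fold in the first comparison. Vegfa, the main growth factor for blood vessels, had 0.20 on the triple null array, against -0.11 at MafG-intact E10.5 and 0.22 at E9.5, and its 3 probes gave 0.28 to 0.34 at E10.5. Adm, adrenomedullin, a vessel-active peptide, had -1.35, against -1.91 and -1.55. For Mif, a cytokine, the levels were 7.15, against 6.63 and 6.94. All 3 were higher than at MafG-intact E10.5, by 0.31 to 0.56, though quantile normalization put Adm at 0.59, just past 1.5-fold, and Mif at 0.28. Egln1, the main prolyl hydroxylase that marks HIF for breakdown, had -0.31, against -0.80 and -0.42. Egln3, its relative, had -0.60, against -0.82 and -0.80, so the difference of 0.22 was close to the scanner error.

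Collagen prolyl hydroxylases and stress genes were mixed. P4ha1 had 0.33 on the triple null array, against -0.24 at MafG-intact E10.5 and 0.24 at E9.5, and P4ha2 had 0.21, against -0.05 and 0.10. P4ha1 was higher by 0.57 at E10.5, P4ha2 by 0.25. Ankrd37, a small HIF target, had 0.86, against 0.59 and 0.65. Ddit4, an inhibitor of mTOR signalling that many stresses induce, departed from the rest: it had 4.43 in the triple null pool, against 4.47 at MafG-intact E10.5 and 3.98 at E9.5. It was therefore alike in the E10.5 pools and higher in both than at E9.5, by 0.45 and 0.50.

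Where a gene had several probes, these mostly pointed one way in the first comparison. Of 11 such genes 10 had all probes on the same side of 0, the exception being Hk1. Between the MafG-intact arrays 9 of 11 did, all but Hk1 and Pfkp, and the probes of Egln1 lay 0.71 apart. Against the E9.5 array 7 of 11 did, and Hk1, Slc16a1, Vegfa and Egln1 had probes on both sides. The spread between probes, as the median SD over these genes, was 0.05 in the first comparison, 0.14 in the second and 0.13 in the third. Over all 4210 genes with several probes it was 0.11, 0.12 and 0.08.

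**Figure D3:**
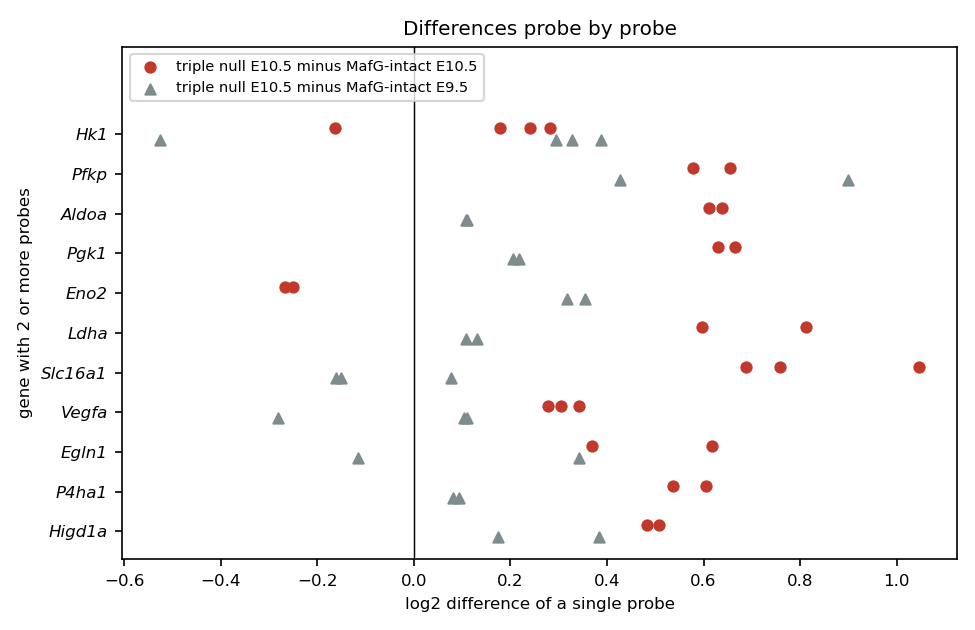
Log2 difference of every usable probe for the 11 genes with 2 or more of them, circles for triple null minus MafG-intact E10.5 and triangles for triple null minus MafG-intact E9.5. Circles lie right of 0 for all probes but the 2 of Eno2 and 1 of Hk1; triangles lie on both sides of 0 for Hk1, Slc16a1, Vegfa and Egln1.

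The second comparison, within MafG-intact embryos of E10.5 and E9.5, follows a day of development within a genotype. Glycolysis genes were lower at E10.5. The median was -0.49 over the glycolytic steps and -0.24 over the other hypoxia genes, beside -0.05 over 12514 genes. Below 0 were 27 of the 32 genes, beside 57.2% of all genes, and above 0 were 5, beside 42.8%. At least 1.5-fold lower were 7 of 32, all glycolytic steps (Slc2a3, Slc16a1, Aldoc, Eno1, Pfkl, Slc2a1 and Hk2), beside 4.33% of all genes. Hk2 was below that limit with normexp and with quantile normalization (-0.54 in both). With the median difference of genes of like level taken out, Hk2 (-0.51) and Slc2a1 (-0.56) both fell short of it. Ldha lay just short of it at -0.58 and was past it under some alternatives. Over the 11 alternatives the count was 5 to 8. Higher by at least 1.5-fold were 2, Ldhb and Eno2, beside 9.26%, and Eno2 stood at 1.51-fold, just over the limit. Slc2a3 was 3.01-fold lower (1.07% of genes were at least 2-fold lower) and Ldhb 2.24-fold higher (4.12% at least 2-fold higher), so 2 of 32 were at least 2-fold apart, beside 5.19%. More than 2 scanner errors lower were 17 of 32 genes, beside 12.9% of all, and 3 (Ldhb, Eno2 and Ddit4) were higher by as much, beside 14.1%. Beside Eno2, neuron markers had a median of 2.16 and all 8 were at least 2-fold higher at E10.5; their part in the Eno2 difference was not tested. The glycolytic steps lay 0.24 below the other hypoxia genes as medians, and 0.12 below with quantile normalization. This comparison shares the MafG-intact E10.5 array with the first, so the 2 sets of differences are not independent of each other.

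The third comparison, triple null E10.5 against MafG-intact E9.5, uses the arrays that the first 2 do not share. Glycolytic steps differed little here, with a median of 0.11 and a range from -0.08 (Slc16a1) to 0.66 (Pfkp), beside a median of 0.01 over 12521 genes. The other hypoxia genes had a median of 0.21, from -0.02 (Vegfa) to 0.45 (Ddit4). Above 0 were 12 of 13 other hypoxia genes and 15 of 19 glycolytic steps, beside 51.5% of all genes. Pfkp alone of the 32 genes was at least 1.5-fold apart, where 3.03% of genes were (1.38% higher and 1.65% lower), and 0 of 32 were 2-fold apart, beside 0.783% (0.256% higher and 0.527% lower). With its brighter probe alone, or with normexp background correction, no gene was 1.5-fold apart. More than 2 scanner errors higher were 4 of 32, Pfkp, Ddit4, Bnip3 and Eno2, beside 2.96% of all genes, and 0 of 32 were lower by as much, beside 2.97%. By medians the glycolytic steps were 0.14 above the other hypoxia genes in the first comparison (0.04 with quantile normalization) and 0.10 below them in this one.

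Set in order over the 3 arrays, 27 of 32 genes were lowest on the MafG-intact E10.5 array, beside 50.2% of the 12429 genes above background on all 3. The triple null array was the highest for 24 of 32, beside 34.5%: 13 of 19 glycolytic steps and 11 of 13 other hypoxia genes. The exceptions among the other hypoxia genes were Vegfa and Ddit4. For the steps they were Slc2a1, Slc2a3 and Slc16a1, highest at E9.5 by at most 0.08, and Pfkm, Eno2 and Ldhb, highest at MafG-intact E10.5.

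Many glycolytic genes were bright, so they were set beside other genes of like level. All 764 genes with a mean level of at least 4 had a median difference of 0.12 in the first comparison, beside 0.61 for the 11 members among them. Between levels of 2 and 4 the medians were 0.74 for 6 members and 0.09 for 1725 genes.

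Neighbouring pathways differed less in the first comparison. HIF's own machinery had a median of 0.13 over 10 measured genes, 0 of them 1.5-fold apart, beside 13.8% of all genes. The oxygen-sensitive subunit gene Hif1a had 2.27 on the triple null array, against 2.11 at MafG-intact E10.5 and 2.35 at E9.5. The 2 farthest apart of that list were Cited2, a HIF-induced inhibitor of HIF (0.49), and the partner subunit gene Arnt (0.43). Epas1 was not above background on any array. The citric acid cycle genes had a median of 0.14 over 17 genes (Suclg2 farthest at 0.43 and Idh3a at 0.26), pentose phosphate genes one of 0.06 over 6 (Rpe 0.25 and Tkt 0.24), and genes that bring pyruvate into the mitochondrion one of 0.01 over 11. None of the 34 genes measured in these 3 lists was 1.5-fold apart, beside the same 13.8% of all genes. In the last list the differences ran from -0.53 for Mpc1, a subunit of the mitochondrial pyruvate carrier, to 0.34. The kinase gene Pdk4, second farthest of that list when all 3 comparisons are taken, was at -0.30 in this one. Of gluconeogenesis genes, 4 were above background on both arrays, with a median of -0.07 and Fbp1 at 0.26; Fbp2 was above background on the triple null and E9.5 arrays and was 0.37 lower in the triple null pool.

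Further HIF targets were mixed. Over 31 measured genes the median was 0.24. At least 1.5-fold higher were 5, beside 4.12% of all genes, and 4 were at least 1.5-fold lower, beside 9.72%. At 2-fold, Stc2, a secreted glycoprotein, and Epo, erythropoietin, were higher and Lox, lysyl oxidase, lower. Stc2 had -0.53 on the triple null array, against -2.06 at MafG-intact E10.5 and -0.94 at E9.5. Epo had -5.15, against -6.26 and -5.17, and was dim on all 3. Lox had -4.63, against -3.41 and -4.57. Ak4, a mitochondrial adenylate kinase, had 0.31, against -0.65 and 0.48, so it was 2.19-fold lower at MafG-intact E10.5 than at E9.5. In the third comparison the list's median was 0.02 and 0 of 31 were 1.5-fold apart, beside 3.03% of all genes.

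Isozymes and transporters outside the 34 genes had a median of 0.09 over 17 measured genes in the first comparison, from -1.11 to 0.97. At least 1.5-fold higher were 2, beside 4.12% of all genes, and 3 were at least 1.5-fold lower, beside 9.72%. Some of the list are forms of single tissues. Pklr, pyruvate kinase of liver and red cells, had -4.56 on the triple null array, against -3.45 at MafG-intact E10.5 and -4.43 at E9.5, which is 2.16-fold lower than at the same stage. Ldhc, the testis form of lactate dehydrogenase, had no signal well above background at MafG-intact E10.5 and was at least 3.52-fold higher in triple null embryos. Against E9.5 it was 0.32 higher, and it was dim on the triple null array too, at -5.23. Slc2a2, a glucose transporter of liver and pancreas, was not well above background in the triple null pool, at least 3.36-fold lower than at E9.5. Beside Slc2a2, all 5 measured markers of yolk sac endoderm were lower in the triple null pool than at E9.5 (median -2.04, Spp2 farthest at -3.62). The MafG-intact E10.5 pool was lower than E9.5 too: Slc2a2 by 2.06-fold and 4 of the 5 markers, with a median of -1.89. How much of that tissue each pool held was not tested.

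**Figure D4:**
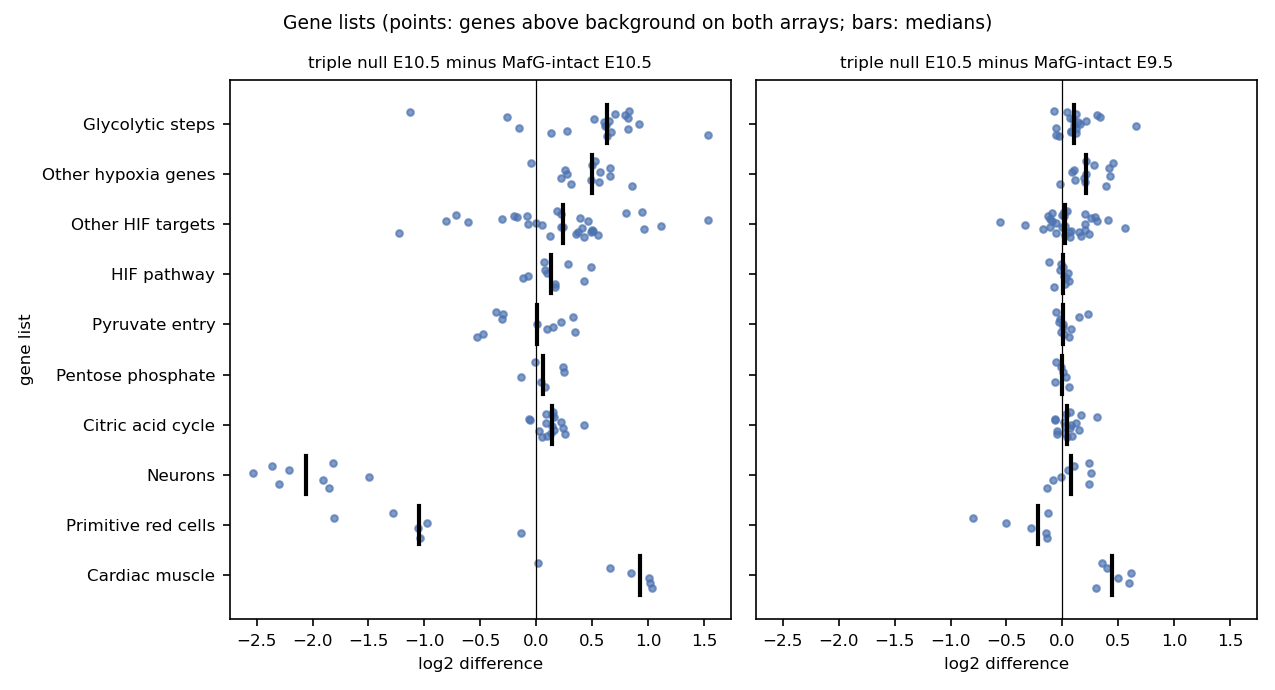
Log2 differences of 10 gene lists, triple null minus MafG-intact E10.5 on the left and triple null minus MafG-intact E9.5 on the right, on a common axis. Each point is a gene above background on both arrays and each black bar the list's median; on the left the 2 top lists have medians of 0.63 and 0.50, neurons -2.06 and cardiac muscle 0.93.

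Cell type markers moved with the groups as well. In whole embryos fewer cells of a type and less RNA per cell cannot be told apart. In the triple null pool, against MafG-intact E10.5, primitive red cell markers had a median of -1.05 where 4 of 6 were at least 2-fold lower (Slc4a1 farthest at -1.80). Markers of skeletal muscle had one of -1.54 where 4 of 5 were at least 2-fold lower (Tnnc2 farthest at -1.97), both measured macrophage markers were lower, and the 4 endothelial markers had a median of 0.12. Cardiac muscle markers were higher, with a median of 0.93 and Myl7, Myh6 and Actc1 at least 2-fold higher. In the third comparison the medians were 0.44 for cardiac muscle, 0.45 for skeletal muscle, 0.08 for neurons and -0.21 for primitive red cells. All 6 red cell markers were below 0. The skeletal muscle value is that of Chrna1, a dim gene with a scanner error of 0.80, and 2 of those 5 markers were below 0. Of the trophoblast markers, Tpbpa and Ctsq were not above background on any array. Prl3b1 had -2.30 on the triple null array, against -2.55 at MafG-intact E10.5 and -2.13 at E9.5, and Prl8a2, not above background at MafG-intact E10.5, was at least 2.15-fold higher in triple null embryos. What part these tissues had in the differences of glycolysis genes was not tested.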

How the data were processed

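Levels were computed from the intensity of each spot in the scanner files the authors deposited. Per the file headers, the authors made them with Agilent Feature Extraction 9.5.3.1, protocol GE1-v5_95_Feb07, on array design 014868 (annotation build mm7). The signal is background-subtracted, linear and not normalized between arrays; its log2 minus the array's 75th percentile over 43379 non-control spots was used. Outlier spots (59 on the triple null array, 52 and 83 on those of MafG-intact E10.5 and E9.5) were left out and spots of a probe averaged. Of 41170 probes, 22950 had 1 symbol through a RefSeq table of GRCm38.p6, used for names and promoters. A gene's level is the mean of its probes, without those never well above background. Genes above background on both arrays of a pair were compared. A gene above background on 1 array has a bound, with the other array set no lower than its dimmest probe well above background. Brighter probes could still miss the background cut, so a bound is approximate. With 1 array per group there is no p-value; the number of arrays limits the precision. The calling step was tested on simulated data, which gives no measure of the spread between embryo pools.

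The members and lists were chosen with earlier results of these data known. Named are all members, the small Maf gene targeted, and from each list genes at least 2-fold apart in any comparison or else the 2 farthest; some that the rule takes are not reported here. The scanner error is the deposited intensity error per spot over its intensity, combined over probes. Alternatives were normexp (offset 50, limma 3.58.1 in R 4.3.3, on the median spot intensity), quantile normalization, other scalings, filters on dim probes, the brightest probe, the deposited value table (the same intensity, rounded, within 0.497%; medians 84.0, 115 and 83.4 in the order above; no centring) and leaving out X and Y genes. Python 3.11.15, numpy 2.4.6, pandas 2.3.3 and matplotlib 3.10.9 were used.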

Additional observations from a re-analysis of the deposited data

How the results depend on the processing

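The medians of the glycolytic steps and of the other hypoxia genes kept their sign in all 3 comparisons under all 11 alternatives. For the glycolytic steps they ranged from 0.49 to 0.65 in the first comparison, from -0.52 to -0.32 in the second and from 0.06 to 0.11 in the third. For the other hypoxia genes the ranges were 0.40 to 0.50, -0.29 to -0.20 and 0.17 to 0.21. The lowest values in size came with quantile normalization for the glycolytic steps (0.49 and -0.32 in the first 2 comparisons), and taking out the median of 20 level bins gave 0.52 in the first. The gap between the medians of the 2 lists was 0.04 to 0.18 in the first comparison, -0.26 to -0.12 in the second and -0.13 to -0.06 in the third. The count of genes at least 1.5-fold higher in the first comparison was 9 with level bins taken out, against 16. In the second comparison it was 1 in place of 2, Eno2 dropping out, with quantile normalization, normexp, scaling on spike-in probes or on detected genes' median, genes at or above the median level, or the brightest probe. In the third it was 0 in place of 1 with normexp, genes at or above the median level, or the brightest probe. With a threshold of 1.5-fold in place of 2-fold the genes apart were 17, 9 and 1 of 32 in the 3 comparisons. Of all genes 13.8%, 13.6% and 3.03% were that far apart. With 3-fold the genes apart were 0, 1 and 0 of 32. Shares of all genes at 3-fold, or at 1.5-fold under an alternative, are not given here. Over all genes, normexp left 267 at least 2-fold apart in the first comparison, against 683. Taking out level bins and scaling on 10 spike-in probes were chosen after the data were seen. Of 1032 values of single genes under an alternative, 983 moved by less than the median SD between probes of a gene, and no gene at least 1.5-fold apart changed sign. Dim genes such as Car9, Hk1 and Pfkp are limited by signal over background. No paired analysis was possible because each group is 1 array.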
